A study of Mus musculus with 25 samples.

Results

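The 9 genes described here encode enzymes of nucleotide synthesis. They are *Rrm1*, *Rrm2*, *Tyms*, *Tk1*, *Dck*, *Dut*, *Cad*, *Umps* and *Ctps*, taken by symbol from a written list and not by a rule on their values. The list was chosen with earlier results of these data known. All 9 were among the 15315 genes of the long-term table and the 14007 genes of the short-term table, and all 9 passed the minimum of 10 reads for testing in both experiments.

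Cells make pyrimidine nucleotides from small precursors. CAD carries out the opening steps of that route, UMPS the closing steps to UMP, and CTP synthase turns UTP into CTP. These products feed RNA and membrane synthesis as well as DNA. Ribonucleotide reductase, built from a large subunit (RRM1) and a small subunit (RRM2), turns ribonucleotides into the deoxyribonucleotides that DNA needs. Thymidylate synthase (TYMS) makes dTMP from dUMP, dUTPase (DUT) supplies dUMP and keeps uracil out of DNA, and thymidine kinase 1 (TK1) and deoxycytidine kinase (DCK) recover deoxynucleosides by phosphorylation. RB restrains the E2F transcription factors, and several genes of deoxynucleotide synthesis are textbook E2F targets that are transcribed as cells enter S phase.

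Pituitaries came from 25 sh*Rb* mice, young adults at the start of treatment. All carried a reverse Tet transactivator (rtTA) at *Rosa26* and a single Tet-responsive GFP-shRNA cassette at *Col1a1*. The line was derived from 1 embryonic stem cell clone and holds 1 shRNA sequence (shRb5), so that another shRNA or another clone was not analysed here. Doxycycline (dox) in the drinking water turned on the hairpin and GFP in any tissue where rtTA was active, and its removal turned them off. The long-term experiment used poly(A)-enriched RNA and held 3 groups. The 6w+dox group was 3 females after 6 weeks on dox, and the 12w+dox group was 2 females and 2 males after 12 weeks on dox. The 12w-res group was 3 females and 2 males that had 6 weeks on dox followed by 6 weeks off. The short-term experiment used rRNA-depleted RNA and held 4 groups, namely 3 males after 16 weeks on dox (16w+dox), 4 females 1 day after dox was removed (1d-dox), 3 males after 3 days (3d-dox) and 3 females after 5 days (5d-dox). The rRNA depletion is taken from the sample labels, whereas the paper's methods name mRNA library preparation without such a split. Sex and time off dox cannot be told apart where 1d-dox or 5d-dox is set against 16w+dox. No group of untreated mice was analysed here, so levels are relative to tumors on dox.

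Values are FPM, read counts that the authors divided by DESeq2 size factors, and the scales of both experiments are not comparable. Reads on genes numbered 19066053 to 28968476 per mouse in the long-term experiment and 9573101 to 13036900 in the short-term experiment. Behind each value of the 9 genes stood 38 to 4272 reads (long-term) or 71 to 1801 reads (short-term). *Pomc*, the hormone precursor of melanotrophs and corticotrophs, took 12.9% to 43.2% and 4.96% to 17.9% of the reads on genes. The targeted gene, *Rb1*, averaged 3.16 FPM (SD 1.70, 3 mice) in the 6w+dox group, 3.21 (SD 0.700, 4 mice) in the 12w+dox group and 18.2 (SD 1.66, 5 mice) in the 12w-res group. In the short-term experiment *Rb1* had group means of 4.19 to 5.12 FPM, while GFP fell from 1247 FPM at 16w+dox to 11.7 at 5d-dox. Replicates were separate mice.

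The shRb5 hairpin was designed against the following 21 bases, shown because every group on dox rests on this single site.
shRb5 target: GAGGAGTTTGATTCCATTATA
All 21 capitals are the target. In GENCODE vM21 the site lies in the coding part of exon 22 of *Rb1*, at chr14:73206076-73206096 on the minus strand of GRCm38. As an exact match of all 21 bases it was found in 1 of 141767 transcripts and in 0 of the 51 transcripts of the 9 genes. Partial matches were not searched, so effects of the hairpin on other transcripts were not tested.

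The stretch of 100 bases just before a start site of *Rrm1*, *Rrm2* and *Cad* is printed next. The start sites of *Rrm1* and *Rrm2* are the first bases of those genes in RefSeq, whereas that of *Cad*, chr5:31054780, lies 160 bases inside the span of the gene. *Rrm1* and *Rrm2* encode the subunits of one enzyme and fell by different amounts in 12w-res, and *Cad* is the member whose mean moved least. Capitals mark CCAAT and the E2F-type letters TTCCCGC or TTCGCGC or TTGCCGC or TTGGCGC on the strand of the gene. Sequences are from RefSeq (GRCm38.p6), 5′ to 3′ on the plus strand, which is the strand of all 3 genes.
Rrm1, chr7:102441595-102441694: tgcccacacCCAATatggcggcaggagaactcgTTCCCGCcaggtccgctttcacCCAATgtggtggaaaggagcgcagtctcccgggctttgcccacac
Rrm2, chr12:24708154-24708253: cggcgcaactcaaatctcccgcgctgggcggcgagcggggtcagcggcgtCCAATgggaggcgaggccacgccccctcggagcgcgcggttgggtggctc
Cad, chr5:31054680-31054779: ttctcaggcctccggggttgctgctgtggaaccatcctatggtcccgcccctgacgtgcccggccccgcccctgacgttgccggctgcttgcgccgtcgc
Windows from 250 bases before the start to 50 bases after it were searched on both strands for all 9 genes, which had 10 windows. The start site lay inside the span of the gene in 5 of them, namely the windows of *Cad*, *Dut*, *Tk1* and *Tyms* and 1 of 2 windows of *Ctps*. The E2F-type letters were found in a window of *Rrm1* (67 bases before the start), *Rrm2* (235 before, opposite strand), *Ctps* (234 before the start site inside the gene, opposite strand) and *Cad* (36 bases past the first base), beside 9.57% of all 32851 windows. CCAAT was found in *Rrm1* (91 and 45 bases before) and *Rrm2* (50 before) and in 37.4% of all windows. The CHR-type letters TTTGAA or TTCGAA were found in *Dck* and *Umps* and in 19.2% of all windows. Only *Rrm1* and *Rrm2* of the 9 held E2F-type letters together with CCAAT, as did 3.66% of all windows. A match is a description of these letters in these windows, and they do not separate the genes that fell in 12w-res from those that did not.

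In tumors taken after 6 weeks of dox withdrawal, the 6 genes of deoxynucleotide synthesis were far below their levels on dox, while the 3 genes of UMP and CTP synthesis were not called. From 12w+dox to 12w-res, *Rrm2* fell most, to 9.17% of its 12w+dox mean, followed by *Tk1* (17.7%), *Dut* (25.5%), *Tyms* (27.7%), *Dck* (29.1%) and *Rrm1* (36.4%). *Ctps* was at 81.8%, *Umps* at 84.9% and *Cad* at 104% of the 12w+dox mean. Genes counted as called where limma, run on log2(FPM + 0.5), gave an adjusted p (Benjamini-Hochberg over all genes) below 0.05 together with an absolute log2 fold change over 1. By that rule 6 of 9 genes were called lower and 0 higher, beside 5.04% of all 15315 genes called lower. When libraries were scaled by their totals of reads, 3364 genes were lower and 244 higher in place of 772 and 955, and the 6 genes were still called. The 6 genes were also those whose 12w-res mice all lay below all 12w+dox mice, as was so for 17.4% of all genes. The median log2 fold change of the 9 genes was -1.74, beside -0.0040 over all genes.

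**Figure D1:**
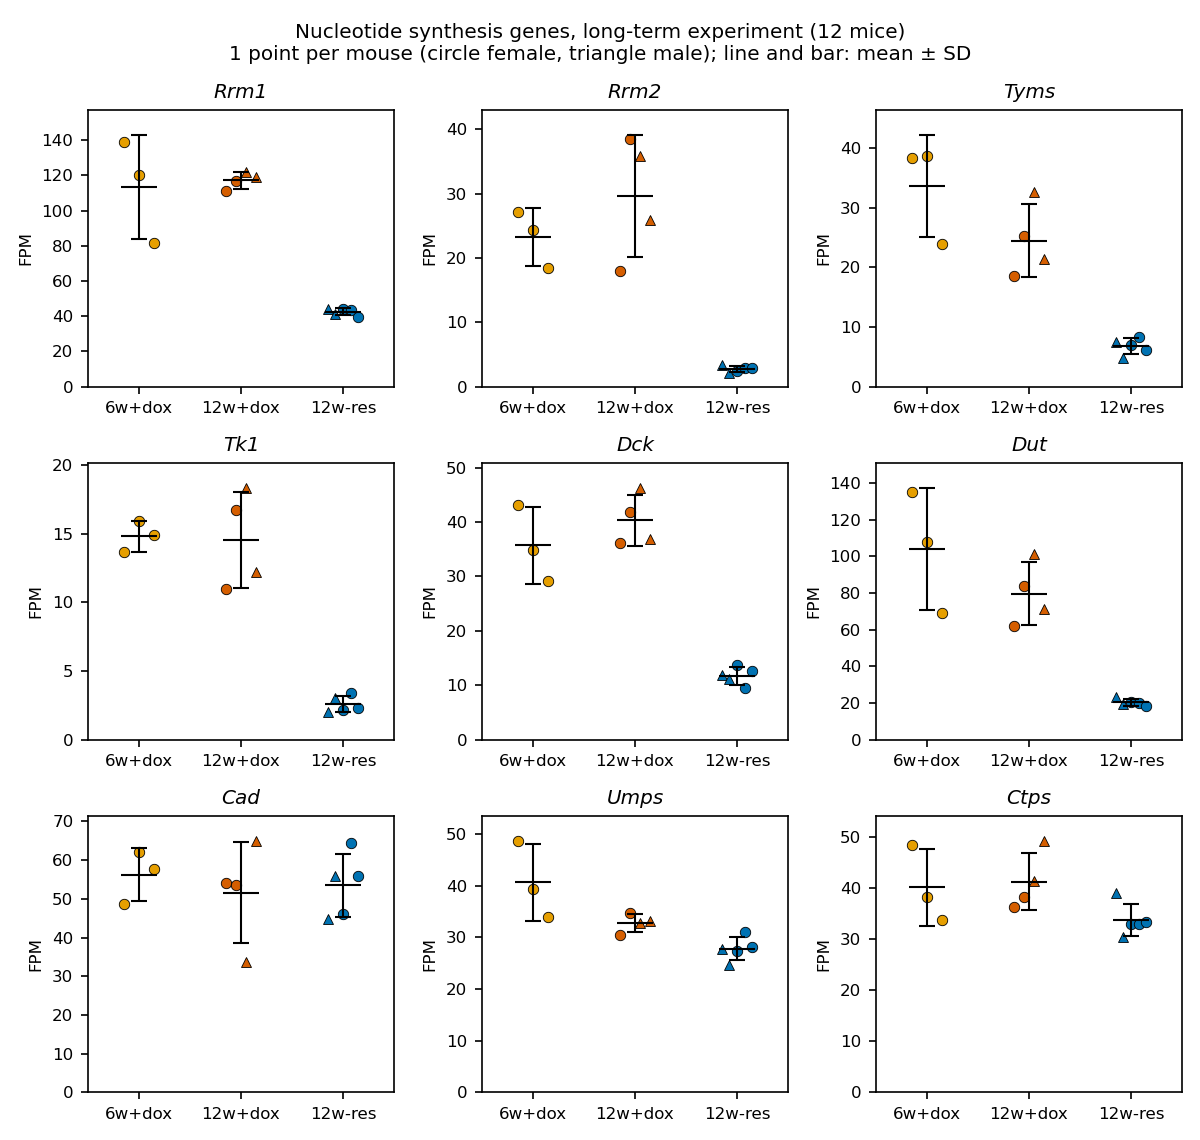
FPM of the 9 genes in each long-term mouse by group, with a circle for a female, a triangle for a male, and a line and bar for the mean ± SD. The 5 12w-res mice lie below all 7 dox-treated mice in *Rrm1*, *Rrm2*, *Tyms*, *Tk1*, *Dck* and *Dut*, and within or next to their range in *Cad*, *Umps* and *Ctps*.

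Among the subunits of ribonucleotide reductase, *Rrm2*, which is made in S phase, measured 27.1, 24.3 and 18.4 FPM in the 6w+dox mice and 18.04, 38.6, 35.9 and 25.9 FPM in the 12w+dox mice. In the 5 12w-res mice it measured 3.33, 2.06, 2.37, 2.89 and 2.93 FPM, from 39 to 64 reads. The lowest mouse on dox was 5.42 times the highest 12w-res mouse. The log2 fold change of *Rrm2* was -3.18 against 12w+dox (standard error 0.22, adjusted p = 1.01e-07, limma) and -2.88 against 6w+dox (standard error 0.24, adjusted p = 8.17e-07, limma). *Rrm1*, the large subunit, measured 138.9, 120.1 and 81.4 FPM at 6w+dox and 110.9, 116.9, 121.8 and 119.3 FPM at 12w+dox, and then 44.2, 41.5, 44.2, 43.8 and 39.7 FPM in 12w-res. The 12w-res mice were tightly grouped at 42.7 ± 2.01 FPM (SD, n = 5), with no overlap with the mice on dox. Its log2 fold change was -1.45 against 12w+dox (standard error 0.13, adjusted p = 1.37e-06, limma) and -1.37 against 6w+dox (standard error 0.14, adjusted p = 6.60e-06, limma).

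Of the thymidylate genes, *Tyms* measured 38.4, 38.7 and 23.9 FPM at 6w+dox, 18.6, 25.2, 32.7 and 21.4 FPM at 12w+dox and 7.44, 4.86, 7.05, 8.38 and 6.19 FPM in 12w-res. Both groups on dox were spread widely, and the highest 12w-res mouse was still below the lowest of them. *Tyms* changed by -1.77 on the log2 scale against 12w+dox (standard error 0.20, adjusted p = 1.62e-05, limma) and by -2.22 against 6w+dox (standard error 0.22, adjusted p = 4.99e-06, limma). A pseudogene named after it, *Tyms-ps*, is annotated, and its part in the *Tyms* reads was not tested. *Dut* measured 135.0, 107.9 and 69.05 FPM at 6w+dox, 61.9, 83.7, 101.5 and 71.3 FPM at 12w+dox and 23.3, 19.5, 20.3, 20.1 and 18.2 FPM in 12w-res. The 12w-res mice sat closely together at 20.3 ± 1.86 FPM (SD, n = 5). The log2 fold change of *Dut* was -1.92 against 12w+dox (standard error 0.18, adjusted p = 2.16e-06, limma) and -2.28 against 6w+dox (standard error 0.19, adjusted p = 1.21e-06, limma).

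Both salvage kinases fell as well. *Tk1*, whose product is the cytosolic thymidine kinase of proliferating cells, measured 13.7, 15.9 and 14.9 FPM at 6w+dox, 10.96, 16.7, 18.3 and 12.2 FPM at 12w+dox and 1.98, 3.06, 2.18, 3.37 and 2.32 FPM in 12w-res, the latter from 38 to 58 reads. Among the 9 genes only *Rrm2* lost a larger part of its 12w+dox mean. *Tk1* changed by -2.28 on the log2 scale against 12w+dox (standard error 0.19, adjusted p = 7.92e-07, limma) and by -2.33 against 6w+dox (standard error 0.21, adjusted p = 1.79e-06, limma). *Tk1* shares 83 exonic bases with *Afmid* on the opposite strand, and whether the counting used strand is not given in the sources used here. *Dck*, which phosphorylates deoxycytidine, measured 43.1, 34.9 and 29.1 FPM at 6w+dox, 36.2, 41.9, 46.2 and 36.9 FPM at 12w+dox and 11.8, 11.1, 13.7, 9.39 and 12.7 FPM in 12w-res. All 5 12w-res mice were below all mice on dox. Its log2 fold change was -1.74 against 12w+dox (standard error 0.14, adjusted p = 6.30e-07, limma) and -1.56 against 6w+dox (standard error 0.15, adjusted p = 5.09e-06, limma).

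The genes of UMP and CTP synthesis were called in neither comparison. *Cad*, the multifunctional enzyme that opens pyrimidine synthesis, measured 54.2, 53.6, 33.7 and 64.9 FPM at 12w+dox and 44.8, 55.9, 46.1, 64.5 and 56.03 FPM in 12w-res. The 12w-res mice lay inside the range of the 12w+dox mice, and the log2 fold change was 0.076 with a 95% interval from -0.29 to 0.44 (adjusted p = 0.750, limma). Without 12w+dox replicate 3, the mouse at 33.7 FPM, it was -0.11, and with the libraries scaled by their totals it was -0.58, where the median of all genes was also shifted, to -0.61. *Umps* measured 30.5, 34.7, 32.8 and 33.1 FPM at 12w+dox and 27.8, 24.7, 27.4, 31.1 and 28.2 FPM in 12w-res, with 4 of 5 12w-res mice below all mice on dox. Its log2 fold change was -0.23 (95% interval -0.48 to 0.011, adjusted p = 0.122, limma). *Umps* shares 213 exonic bases with *Gm15829* on the opposite strand. *Ctps* measured 36.4, 38.2, 41.4 and 49.2 FPM at 12w+dox and 39.1, 30.5, 33.0, 33.1 and 33.3 FPM in 12w-res. Only replicate 1 of 12w-res overlapped with the 12w+dox mice, and the log2 fold change was -0.28 (95% interval -0.55 to -0.0093, adjusted p = 0.0948, limma). The intervals of these 3 genes ran from -0.55 to 0.44 and those of the 6 called genes from -3.65 to -1.17. A call requires an absolute log2 fold change over 1 in these same values, so a gap is partly built in. The difference between the genes was not itself tested.

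Set against 6w+dox, the stage at which dox had been withdrawn, the same 6 genes were called lower, beside 5.82% of all genes. Their 12w-res means were 11.7% (*Rrm2*), 17.4% (*Tk1*), 19.5% (*Dut*), 20.1% (*Tyms*), 32.8% (*Dck*) and 37.6% (*Rrm1*) of the 6w+dox means. The 12w-res group is shared with the comparison above, so the values of both comparisons are not independent. The 12w-res mice were below all 6w+dox mice in 7 of 9 genes, beside 15.9% of all genes. The added gene was *Umps*, at 48.6, 39.3 and 33.9 FPM at 6w+dox, where the difference was -0.53 on the log2 scale (adjusted p = 0.00532, limma; standard error 0.12), which was below the minimum size for a call. With no minimum size 7 of 9 genes were lower, beside 16.8% of all genes. *Ctps* (-0.23, adjusted p = 0.208) and *Cad* (-0.078, adjusted p = 0.773, limma) did not pass the test. *Cad* measured 48.7, 62.2 and 57.8 FPM and *Ctps* 48.5, 38.2 and 33.8 FPM at 6w+dox.

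**Figure D2:**
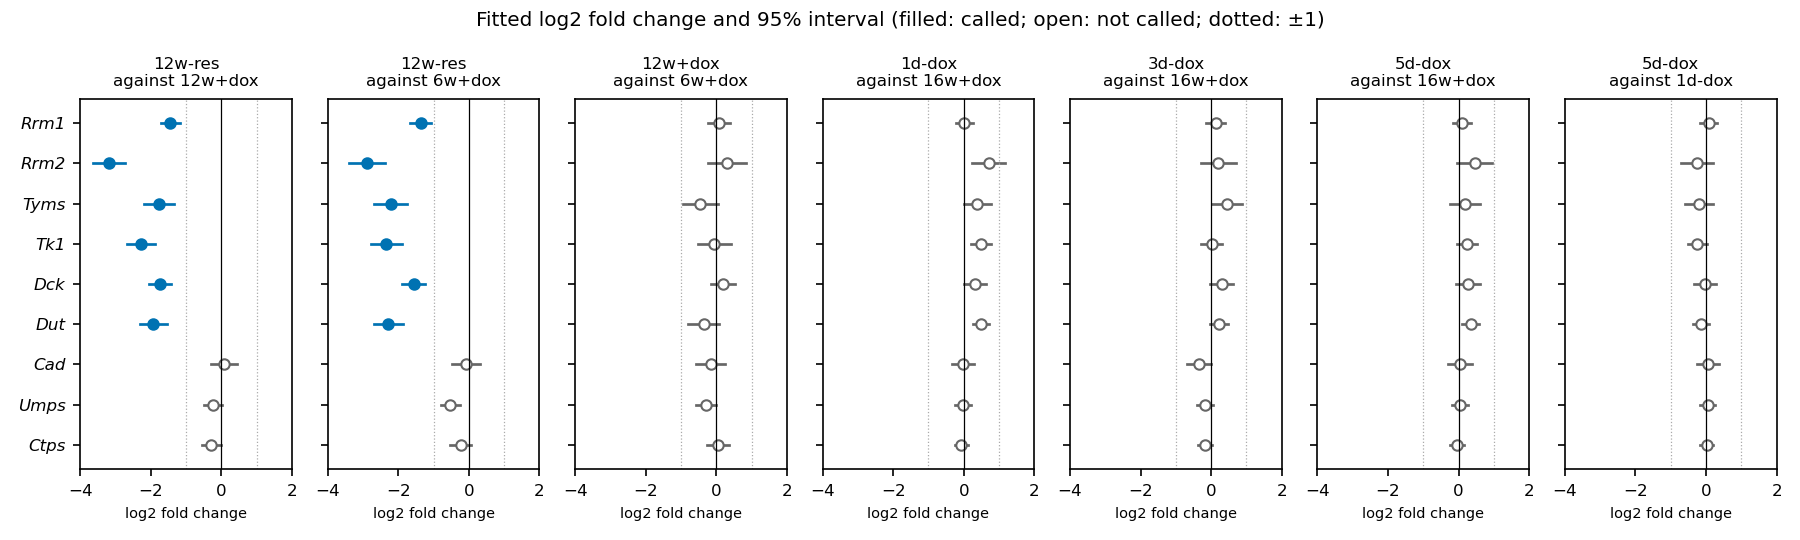
Fitted log2 fold change (x axis) of each of the 9 genes with its 95% interval in the 7 comparisons, filled where called and open where not, with dotted lines at a log2 fold change of 1 in each direction. In both 12w-res comparisons 6 genes lie left of -1, and in the other 5 comparisons 0 genes were called.

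Between the tumors on dox, 6w+dox and 12w+dox, 0 of 9 genes were called by limma, beside 7.20% of all genes, and 0 by DESeq2 or edgeR. Without adjustment 1 gene was lower at p under 0.05, *Umps* (log2 fold change -0.29, adjusted p = 0.123, limma), beside 19.3% of all genes. *Tyms* was at -0.45 (95% interval -0.94 to 0.040), *Dut* at -0.35 (-0.79 to 0.080) and *Rrm2* at 0.30 (-0.23 to 0.83), and their mice overlapped. In this comparison 5 of 5 markers of somatotrophs, lactotrophs and thyrotrophs were called lower, with a summed level of 56830 to 92020 FPM at 6w+dox and 1154 to 12505 FPM at 12w+dox. So were 3 of 3 neural lobe markers (34.9 to 114.1 and 2.45 to 5.06 FPM), 3 of 4 fibroblast markers (median -1.61) and 2 of 5 endothelial markers (median -0.63). Of 5 melanotroph markers 2 were called higher, and in the leukocyte and gonadotroph lists 0 were called (limma). Their part in the values of the 9 genes was not tested.

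Per kilobase of the longest transcript, *Dut* had the highest level of the 9 genes at 12w+dox (40.8 ± 8.76 FPM per kilobase, SD, n = 4), followed by *Rrm1* (21.4 ± 0.849). *Ctps* (15.3 ± 2.09), *Rrm2* (13.5 ± 4.30) and *Dck* (13.1 ± 1.52) overlapped in turn, as did *Umps* (9.41 ± 0.502), *Cad* (7.23 ± 1.82), *Tyms* (6.30 ± 1.57) and *Tk1* (5.85 ± 1.42). The mice of *Dut*, *Rrm1* and *Dck* were all above those of the next gene. In 12w-res the order began with *Ctps* (12.5 ± 1.17, n = 5), which overlapped with *Dut* (10.4 ± 0.953). *Umps* (7.99 ± 0.660), *Rrm1* (7.80 ± 0.367) and *Cad* (7.49 ± 1.14) came next and overlapped with each other in turn. *Dck* (3.81 ± 0.525) was apart from both neighbours, and *Tyms* (1.75 ± 0.343), *Rrm2* (1.24 ± 0.228) and *Tk1* (1.04 ± 0.241) closed the order with overlaps. *Rrm2* thus stood above *Umps* and *Cad* in its mean at 12w+dox and below both in every 12w-res mouse.

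The fall of *Rrm2* was deeper than that of its partner subunit within the same mice. The ratio of *Rrm2* to *Rrm1* FPM was 0.163 to 0.330 at 12w+dox and 0.0497 to 0.0752 in 12w-res. As a log2 ratio of FPM + 0.5 within a mouse it differed by -1.74 in 12w-res (-3.76 ± 0.228, n = 5, against -2.03 ± 0.450, n = 4; p = 0.00794 in a two-sided exact permutation test, which with these mice cannot be smaller; adjusted p = 0.0298 over 15 ratio tests). *Rrm2b* encodes the alternative small subunit, a p53-induced form that supplies deoxynucleotides outside S phase, and its 12w-res mean was 91.3% of that at 12w+dox (log2 fold change -0.13, adjusted p = 0.321, limma). The *Rrm2*:*Rrm2b* ratio went from 0.449 to 1.09 at 12w+dox to 0.0594 to 0.0971 in 12w-res. The log2 difference was -3.05 (exact permutation test, p = 0.00794, adjusted p = 0.0298). These are ratios of FPM without correction for length. Per kilobase of the longest transcript the 12w+dox level of *Rrm2b* was 8.38 ± 0.497 (SD, n = 4), beside 13.5 ± 4.30 for *Rrm2*. Its 12w-res level was 7.65 ± 0.619 (SD, n = 5), beside 1.24 ± 0.228 for *Rrm2*.

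The mitochondrial counterparts of the salvage kinases were not called. *Tk2*, the mitochondrial thymidine kinase, was at 98.8% and *Dguok*, the mitochondrial deoxyguanosine kinase, at 101% of their 12w+dox means (log2 fold changes -0.0014 and 0.011, adjusted p = 0.994 and 0.954, limma). The log2 ratio of *Tk1* to *Tk2* differed by -2.28 in 12w-res from that at 12w+dox (linear ratio 0.469 to 0.661 at 12w+dox, and 0.0744 to 0.143 in 12w-res), and that of *Dck* to *Dguok* by -1.75 (2.14 to 2.53, and 0.562 to 0.792). Each had p = 0.00794 in the exact permutation test and an adjusted p of 0.0298. *Ctps2*, the second CTP synthase, was at 92.0% of its 12w+dox mean, and the *Ctps*:*Ctps2* log2 ratio differed by -0.16 (exact permutation test, p = 0.214, adjusted p = 0.292). Against 6w+dox the log2 differences were -1.52 (*Rrm2*:*Rrm1*), -3.08 (*Rrm2*:*Rrm2b*), -2.43 (*Tk1*:*Tk2*) and -1.11 (*Dck*:*Dguok*), each with p = 0.0179 in the exact permutation test, the smallest for 5 mice against 3, and an adjusted p of 0.0335. *Ctps*:*Ctps2* differed by -0.19 (exact permutation test, adjusted p = 0.241). From 6w+dox to 12w+dox only *Dck*:*Dguok* passed, with a log2 difference of 0.64 (exact permutation test, p = 0.0286, adjusted p = 0.0476), where *Dguok* itself had a log2 fold change of -0.46 and *Dck* of 0.18. That p is the smallest for 4 mice against 3. Its adjusted p is under 0.05 only because the 12w-res ratios among the same 15 tests had lower p.

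**Figure D3:**
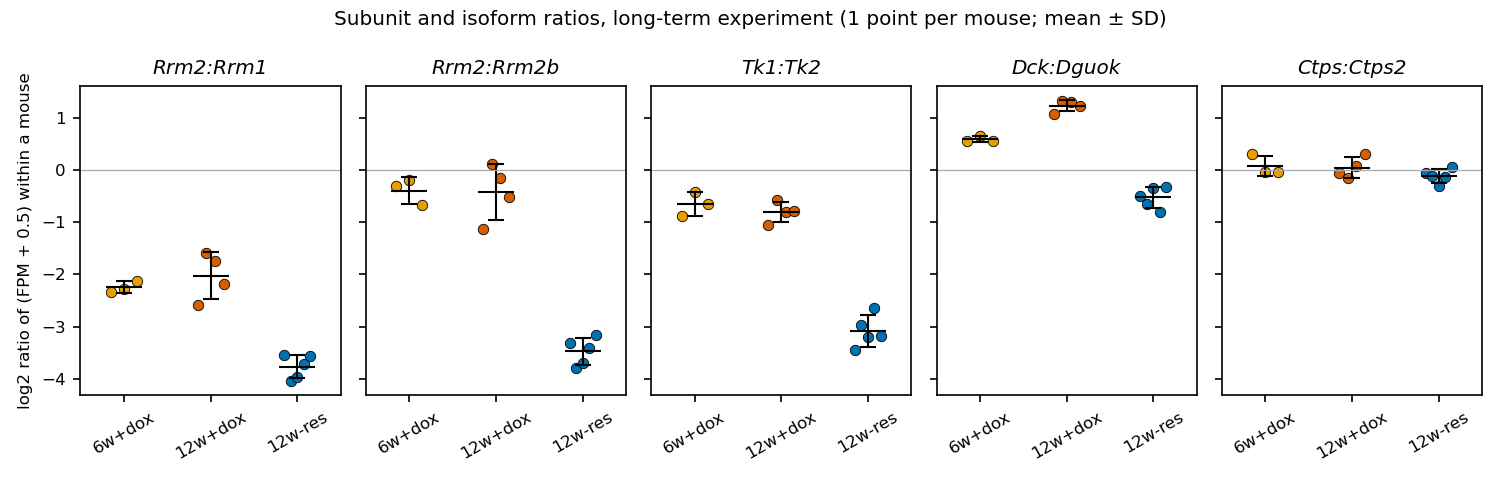
Log2 ratio of FPM + 0.5 within each long-term mouse (y axis) for 5 pairs of genes by group, with the mean ± SD. The 5 12w-res mice lie below all mice on dox in *Rrm2*:*Rrm1*, *Rrm2*:*Rrm2b*, *Tk1*:*Tk2* and *Dck*:*Dguok*, and overlap with them in *Ctps*:*Ctps2*.

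The other 52 listed genes of nucleotide metabolism held 3 genes called lower and 3 called higher between 12w+dox and 12w-res, beside 5.04% and 6.24% of all genes. With no minimum size 21 of them passed the test, 10 lower and 11 higher (adjusted p under 0.05, limma), beside 37.8% of all genes. Of 15 other deoxynucleotide and thymidylate genes, 2 were called lower and 1 higher (median log2 fold change -0.12). The lower ones were *Shmt1* (-1.98), a serine hydroxymethyltransferase that supplies folate-bound carbon for thymidylate synthesis, and *Dtymk* (-1.05), the kinase that takes dTMP to dTDP. The higher one was *Nme2* (1.48), a nucleoside diphosphate kinase. Of 7 other pyrimidine synthesis genes, 0 were called (limma; median -0.091), including *Dhodh*, the step between CAD and UMPS, at -0.063. Of 13 genes of de novo purine synthesis, 1 was called lower, *Paics* at -1.01 (median -0.20). Of 4 purine salvage genes and 3 nucleoside transporters, 0 were called (limma; medians 0.19 and -0.24). Of 10 nucleotide breakdown genes, 2 were called higher, namely *Xdh* (1.88), which oxidises purines to uric acid, and *Upp1* (1.17), a uridine phosphorylase (median 0.42). All the called genes had an adjusted p of 4.94e-04 or lower in limma.

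**Figure D4:**
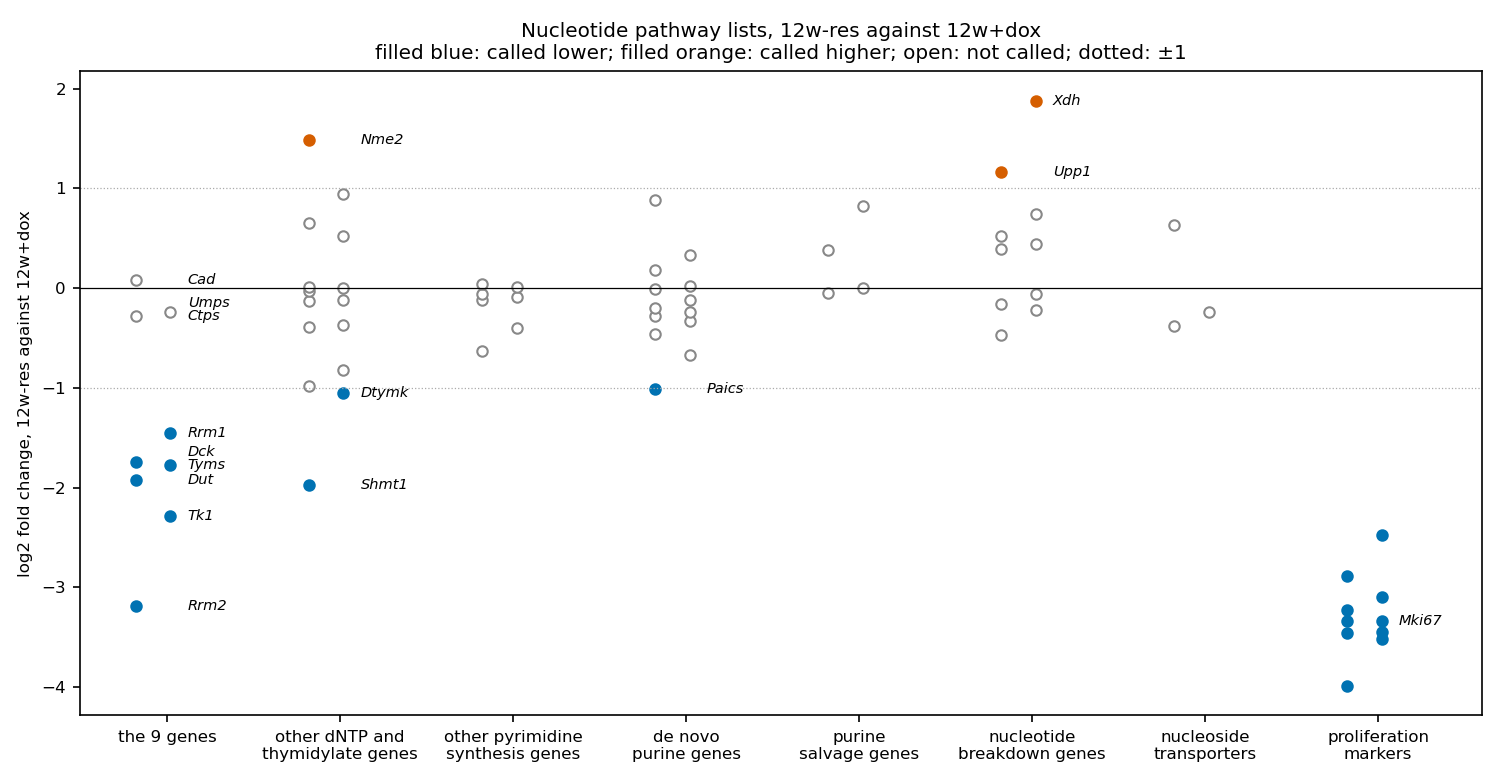
Log2 fold change in 12w-res against 12w+dox (y axis) of every gene of 8 lists, with called genes filled, other genes open and dotted lines at a log2 fold change of 1 in each direction. Of the 9 genes 6 lie below -1, of the 52 genes in the other nucleotide lists 3 do so with a call, and the 10 proliferation markers lie from -3.98 up to -2.47.

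Against 6w+dox, 4 of the 15 other deoxynucleotide genes were called lower. These were *Dctpp1* (-1.91), which cleaves dCTP, *Shmt1* (-1.56), *Dtymk* (-1.31) and *Nudt1* (-1.01), which removes oxidised purine nucleotides. *Dctpp1* had -0.98 and *Nudt1* -0.82 against 12w+dox, with adjusted p of 0.00703 and 0.0148 in limma, so that they missed the call there by size. *Xdh* was called higher (1.73), beside 5.81% of all genes, and 0 genes were called in the lists for pyrimidine synthesis, de novo purine synthesis, purine salvage and transport (limma).

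Markers of proliferation and of other cells also differed between these groups. All 10 proliferation markers were called lower in both 12w-res comparisons, with *Mki67*, which encodes Ki67, at -3.34 against 12w+dox, and their summed level was 425.8 to 578.3 FPM at 12w+dox and 50.2 to 60.3 FPM in 12w-res. The *Rrm2* mean in 12w-res was 9.17% and the *Mki67* mean 9.31% of that at 12w+dox, whereas against 6w+dox they were 11.7% and 6.68%. Endothelial markers (4 of 5 called higher, summed 31.8 to 66.2 FPM at 12w+dox and 115.8 to 129.5 FPM in 12w-res) and fibroblast markers (4 of 4 higher, 28.5 to 116.6 and 188.9 to 456.8 FPM) rose in 12w-res. Of 5 markers of somatotrophs, lactotrophs and thyrotrophs, *Prl* (4.06) and *Gh* (2.31), the genes of prolactin and growth hormone, were called higher, and the list summed to 1154 to 12505 FPM at 12w+dox and 16077 to 30475 FPM in 12w-res. Of 5 melanotroph markers 1 was called higher (*Pcsk2*, 1.37) and 3 had a fitted value below 0 (median -0.14). Their sum, 96583 to 198910 FPM at 12w+dox and 458945 to 581250 FPM in 12w-res, was dominated by *Pomc*. *Pomc* did not pass the test (1.86, standard error 3.08, adjusted p = 0.663, limma), although all 12w-res mice lay above all 12w+dox mice. The fit uses a trended prior variance, so this standard error is not the spread between mice alone. The missing call therefore does not mean that *Pomc* was unchanged. *Pomc* took 12.9% to 23.0% of the reads on genes at 12w+dox and 39.1% to 43.2% in 12w-res. In the leukocyte (6), gonadotroph (3) and neural lobe (3) lists 0 markers were called (limma). All 6 leukocyte markers nevertheless had a fitted value above 0 (median 0.73), with adjusted p from 0.00215 (*C1qa*) to 0.197 (*Aif1*) in limma. Their sum was 77.7 to 104.5 FPM at 12w+dox and 123.0 to 176.1 FPM in 12w-res. Against 6w+dox, 3 of 5 somatotroph, lactotroph and thyrotroph markers were called lower, from a sum of 56830 to 92020 FPM, as were 3 of 3 neural lobe markers (median -2.60), from a sum of 34.9 to 114.1 FPM to 2.48 to 5.62 FPM. In that comparison *Pcsk2* and *Col1a1* were called higher, and 0 markers in the endothelial, leukocyte and gonadotroph lists were called (limma). The median log2 fold change there was 0.57 for endothelial, 0.73 for leukocyte and 0.0040 for fibroblast markers. None of these markers was at 0 in all mice of a group. In bulk tissue fewer cells that express a gene and less RNA per cell cannot be told apart, and the part of these cell populations in the fall of the 6 genes was not tested.

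Among all 15315 genes, those whose pattern over the 12 mice was most like that of *Rrm2*, by the root mean square difference of log2(FPM + 0.5) after centring each gene, were *Shcbp1* (0.204), *Cdc20* (0.231), *Cdca2* (0.255), *Fam64a* (0.255) and *Mcm5* (0.258), where the median gene was at 1.57. Of the other members *Tk1* was nearest (0.495), followed by *Dut* (0.577), *Tyms* (0.638), *Dck* (0.735) and *Rrm1* (0.855). *Umps* (1.37) and *Ctps* (1.41) were farther, at places 2620 and 3319 in order of likeness, and *Cad* (1.59, place 8171) was next to the median gene. In the 13 short-term mice the nearest were the histone genes *Hist1h3c* (0.137), *Hist1h1b* (0.139) and *Hist1h2ak* (0.141), then *Uhrf1* (0.152) and *Hist1h1d* (0.154), with the median gene at 0.429. There *Dut* was the nearest member (0.206) and *Cad* the farthest (0.480).

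In the days after dox removal no fall of the 6 deoxynucleotide genes was detected. None of the 9 genes was called by limma, DESeq2 or edgeR against 16w+dox at 1 day, 3 days or 5 days, beside 0.0430%, 0.129% and 0.193% of the 13958 genes tested (limma). All 6 deoxynucleotide genes had a fitted value above 0 at each time, from 0.013 (*Rrm1*, 1d-dox) to 0.71 (*Rrm2*, 1d-dox), with medians of 0.44 (1d-dox), 0.21 (3d-dox) and 0.26 (5d-dox). The 3 comparisons share the 16w+dox mice, so that these signs are not independent. Without adjustment 3 genes were higher at p under 0.05 at 1d-dox, beside 6.78% of all genes. At 3d-dox 1 was higher (*Tyms*, beside 7.95%) and 1 lower (*Cad*, beside 8.70%), and at 5d-dox 1 was higher (*Dut*, beside 7.20%).

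*Rrm2* measured 5.84, 3.88 and 6.41 FPM at 16w+dox and 8.82, 9.68, 11.7 and 6.27 FPM at 1d-dox. It then measured 5.67, 4.87 and 8.28 FPM at 3d-dox and 6.25, 7.43 and 8.72 FPM at 5d-dox. Only replicate 4 of 1d-dox overlapped with 16w+dox, and the log2 fold change at 1d-dox was 0.71 (95% interval 0.25 to 1.16, adjusted p = 0.178, limma). At 3d-dox it was 0.20 (-0.29 to 0.69) and turned to -0.0015 without 3d-dox replicate 3, and at 5d-dox it was 0.46 (-0.035 to 0.95). The day 1 interval of *Rrm2* excludes 0 and reaches past a log2 fold change of 1, and those of the later days include 0.

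*Dut* measured 20.6, 18.4 and 23.7 FPM at 16w+dox, 32.5, 30.2, 31.8 and 23.9 FPM at 1d-dox, 23.2, 23.7 and 26.7 FPM at 3d-dox and 24.6, 28.1 and 26.9 FPM at 5d-dox. All 1d-dox and all 5d-dox mice were above all 16w+dox mice. The log2 fold change of *Dut* was 0.49 at 1d-dox (95% interval 0.25 to 0.72, adjusted p = 0.102, limma), 0.23 at 3d-dox (adjusted p = 0.338) and 0.34 at 5d-dox (adjusted p = 0.223). *Tk1* measured 2.07, 1.90 and 1.86 FPM at 16w+dox and 3.09, 3.02, 3.12 and 2.48 FPM at 1d-dox, also without overlap. It changed by 0.48 on the log2 scale at 1d-dox (95% interval 0.21 to 0.76, adjusted p = 0.131, limma), and was at 0.015 at 3d-dox and 0.24 at 5d-dox. At 1d-dox 2 of 9 genes were above all 16w+dox mice, beside 5.60% of all genes, and at 5d-dox 1 of 9, beside 9.64%.

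*Tyms*, *Dck* and *Rrm1* overlapped with 16w+dox at all 3 times. *Tyms* ranged from 2.67 to 4.82 FPM at 16w+dox and from 3.53 to 6.55 FPM over the other groups, with log2 fold changes of 0.39, 0.45 and 0.18 in order of days (adjusted p from 0.264 to 0.743, limma). *Dck* ranged from 3.29 to 4.62 FPM and from 4.26 to 6.07 FPM, with log2 fold changes of 0.31, 0.29 and 0.27. *Rrm1* was the steadiest of the 6, with group means of 20.9 to 22.8 FPM and log2 fold changes of 0.013, 0.12 and 0.090 (95% intervals from -0.23 to 0.38). The value at 1d-dox turned to -0.094 and that at 5d-dox to -0.017 without 16w+dox replicate 2.

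Of the UMP and CTP genes, *Umps* measured 10.4, 10.5 and 10.6 FPM at 16w+dox and 8.65, 10.04 and 8.89 FPM at 3d-dox, and *Ctps* 16.5, 15.4 and 16.5 FPM and 13.6, 15.3 and 13.4 FPM. Both were without overlap at 3d-dox and lower, at -0.19 each (adjusted p = 0.399 and 0.319, limma), beside 11% of all genes whose 3d-dox mice lay below. *Cad* measured 33.1, 41.5 and 33.9 FPM at 16w+dox and 26.4, 36.7 and 23.0 FPM at 3d-dox, a log2 fold change of -0.35 (95% interval -0.68 to -0.017, adjusted p = 0.274, limma). At 1d-dox and 5d-dox the 3 genes lay between -0.066 and 0.041.

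**Figure D5:**
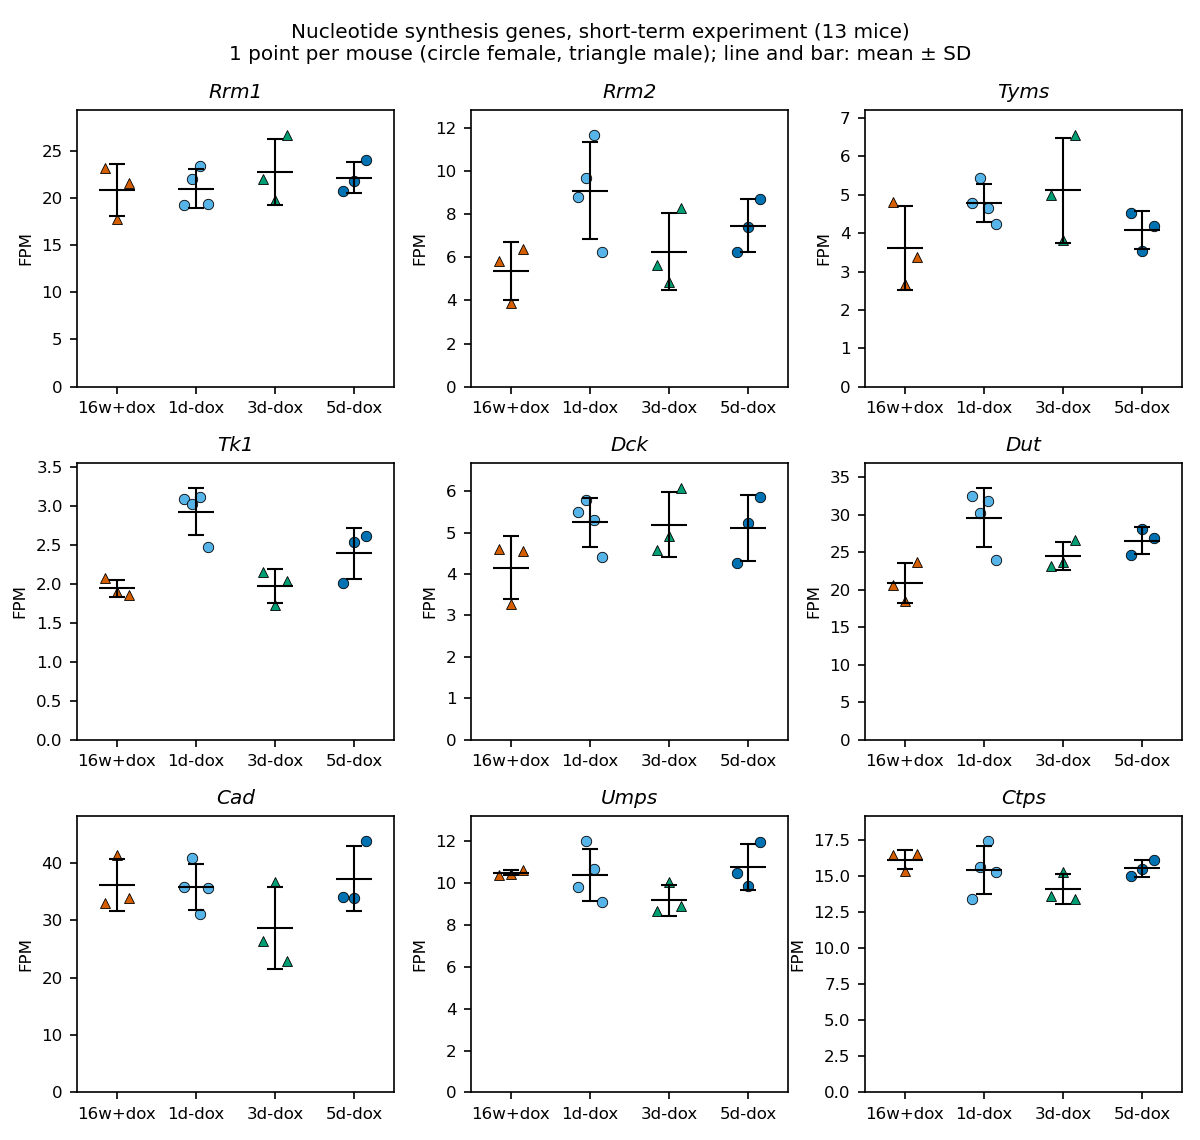
FPM of the 9 genes in each short-term mouse by group, with a circle for a female, a triangle for a male, and a line and bar for the mean ± SD. *Dut* and *Tk1* at 1d-dox and *Dut* at 5d-dox lie above all 16w+dox mice, and the other 7 genes overlap with 16w+dox at 1d-dox and 5d-dox.

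From 1d-dox to 5d-dox, both female, 0 of 9 genes were called by limma, DESeq2 or edgeR and 0 had an unadjusted p under 0.05 in limma, beside 0.0143% of all genes called. The log2 fold changes ran from -0.25 (*Rrm2*, 95% interval -0.71 to 0.21) to 0.077 (*Rrm1*). Between 3d-dox and 16w+dox, both male, the largest was that of *Tyms*, given above. None of the 16 ratio tests of this experiment passed (smallest adjusted p = 0.366, exact permutation test), and none could have. With these group sizes no adjusted p over the 16 tests can fall below 0.05, so the ratios are described only. The *Rrm2*:*Rrm1* log2 ratio was 0.69 higher at 1d-dox than at 16w+dox (exact permutation test, p = 0.0571), with 0.324 to 0.499 as linear ratios at 1d-dox and 0.218 to 0.296 at 16w+dox. The *Tk1*:*Tk2* log2 ratio was 0.52 higher there (exact permutation test, p = 0.0571). Before adjustment this test cannot go below 0.0286 with 4 mice against 3, or below 0.1 with 3 against 3.

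Single mice carried much of the spread in the short-term groups. Replicate 2 of 16w+dox was the lowest of all 13 mice in 5 of the 6 deoxynucleotide genes and had the highest *Cad* of its group, at 41.5 FPM. Without it the log2 fold change at 1d-dox was 0.51 for *Rrm2*, 0.40 for *Dut* and 0.21 for *Tyms*. Replicate 3 of 3d-dox was the highest of its group in 5 of the 6 genes, with the lowest *Cad* of all 13 mice (23.0 FPM) and the highest *Mki67* (208.4 FPM). Among the long-term mice, replicate 1 of 12w+dox was the lowest of its group in 6 of 6 genes, and leaving out any 1 mouse left 6 genes called in both 12w-res comparisons.

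Other genes in these groups moved beside the sex labels and the mix of cells. The summed level of 3 gonadotroph markers was 11.6 to 21.3 FPM at 16w+dox and 27.2 to 86.3 FPM at 3d-dox (males), and 0.763 to 2.20 FPM at 1d-dox and 0.753 to 1.89 FPM at 5d-dox (females). Of these *Lhb* was called lower at 1d-dox and 5d-dox and higher at 3d-dox. Endothelial markers summed to 16.00 to 29.00 FPM at 16w+dox, 8.70 to 11.9 FPM at 1d-dox, 16.6 to 28.2 FPM at 3d-dox and 6.70 to 9.92 FPM at 5d-dox, with *Cdh5* called lower at 1d-dox (-1.10) and 5d-dox (-1.22). Fibroblast markers summed to 25.6 to 26.9, 8.37 to 14.4, 14.1 to 39.97 and 9.51 to 20.7 FPM in the same order, and markers of somatotrophs, lactotrophs and thyrotrophs to 175.3 to 185.1, 20.9 to 100.9, 135.5 to 779 and 23.3 to 98.5 FPM, with 0 called in either list (limma). The 10 proliferation markers summed to 186.6 to 282.9 FPM at 16w+dox, 219.8 to 337.1 at 1d-dox, 227.8 to 375.9 at 3d-dox and 226.4 to 264.4 at 5d-dox, with 0 of 10 called at any time (limma). Their part in the values of the 9 genes was not tested. In the long-term experiment no difference by sex in the change from 12w+dox to 12w-res was detected for the 9 genes by a test of the interaction (adjusted p = 0.999 for *Tyms*, the nearest to a difference, limma). Each sex had 2 to 3 mice in a group.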

How the data were processed

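RNA-seq of pituitaries from 25 sh*Rb* mice was analysed, 12 in the long-term and 13 in the short-term experiment. The authors mapped reads to mm10 with STAR, counted them on RefSeq genes and deposited a signal per gene and mouse, FPM, in which DESeq2 size factors had been applied to the counts. The counting tool and its use of strand are not given in the sources used here. Of the deposited values, 100% were whole multiples of 1 read within 0.1 of a read, so reads were recovered. In the short-term libraries 68.8% to 75.0% of reads lay in 4 lines naming no gene, which stayed out of tests. Per-sample columns left unused numbered 0.

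Groups, replicate numbers and sex came from the sample labels. Genes were kept if over 50% of the mice of a group held 10 or more recovered reads, and they were tested with limma 3.58.1 (R 4.3.3, trended prior variance) on log2(FPM + 0.5), all groups of an experiment in one fit, with Benjamini-Hochberg adjustment over all genes. Fold changes on this scale understate those of genes with few reads. Ratios within a mouse were compared by two-sided exact permutation tests, adjusted over 15 (long-term) or 16 (short-term) tests. On simulated reads limma called 100 of 100 genes changed 4-fold in the 12w-res against 12w+dox design (15040 genes). In the 1d-dox against 16w+dox design (13688 genes) limma called 98 of 100 genes changed 4-fold. Changes smaller than 4-fold were not simulated. The largest fitted short-term log2 fold change of the genes described was 0.71 (*Rrm2*, 1d-dox against 16w+dox), which is smaller than 4-fold. The simulation therefore cannot tell whether short-term changes of that size would be called. Replicate pairs all differed by more than counting error (chi-square per degree of freedom 4.01 to 228). Intervals around fitted values are 95% confidence intervals of the difference between group means. They were estimated from the spread between mice together with the trended prior variance of limma. They are not ranges of single mice.

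The members and gene lists were chosen with earlier results of these data known. The text names the 9 genes, *Rb1* and GFP, genes of each list called in the comparison described, the counterparts *Rrm2b*, *Tk2*, *Ctps2* and *Dguok*, *Mki67*, and the 5 genes nearest to *Rrm2*. *Dhodh*, and *Dctpp1* and *Nudt1* in the comparison with 12w+dox, were named after their values were seen. *Ctps2*, *Prps1*, *Prps2* and *Hprt* were not analysed in the short-term experiment, and 2 further genes of the lists are not reported here. Alternatives were DESeq2 1.42.0 and edgeR 4.0.16 on recovered reads, TMM scaling, totals of recovered reads, pseudocounts of 0.1 and 1, other filters, only the groups compared, a replicate block, sex as a covariate, mice of one sex, no minimum fold change, and each mouse left out. Promoter windows came from RefSeq (GRCm38.p6), transcript lengths and exon overlaps from GENCODE vM21.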

Additional observations from a re-analysis of the deposited data

Results flagged for a closer look

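*Tk1* at 1d-dox was the only one of 41 groups of 4 or 5 mice examined, over the genes and ratios above, in which 1 mouse stood far from the others. Replicate 4 measured 2.48 FPM, where the other 3 mice measured 3.02 to 3.12 FPM. Its gap to the nearest mouse was 0.855 of the range of the group, above Dixon's 95% critical value for 4 mice. Chance alone flags about 1 in 20 such groups. The same mouse was the lowest of its group in 5 of the 6 deoxynucleotide genes. Without it the log2 fold change of *Tk1* at 1d-dox was 0.55 in place of 0.48.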

How the results depend on the processing

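In both 12w-res comparisons 6 genes were called under every alternative except no minimum fold change, where 12w-res against 6w+dox had 7 (*Umps*, -0.53, was added), and in the other 5 comparisons 0 genes were called. Leaving out each mouse in turn gave 6 to 6 and 0 to 0. The called log2 fold changes kept their direction and call under all alternatives, at -3.78 to -2.996 for *Rrm2*, -2.87 to -2.11 for *Tk1* and -2.10 to -1.41 for *Rrm1* against 12w+dox, with a largest adjusted p of 0.00398 (*Tyms*). Depth limits *Rrm2* and *Tk1* in 12w-res most (from 38 reads). The smallest possible p of the ratio tests rises when a mouse is left out, and 19 such fits lost the threshold by construction, with the direction kept.

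With the replicate number as a block the counts of called genes were 6 and 6 in the 12w-res comparisons and 0 in the other 5. Between samples of the same number, correlations of their deviations ran from -0.17 to 0.24 (long-term) and from -0.21 to 0.17 (short-term). Of these, 1 of 10 and 3 of 18 exceeded 0.1. That count cannot decide whether samples of the same number share more than a number. The block changed no call, and it turned only *Umps* (0.037 at 1d-dox, and -0.0052 from 1d-dox to 5d-dox).

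Totals of recovered reads moved the all-gene median to -0.61, -0.33 and 0.29 in the long-term comparisons and to 0.14, -0.070 and -0.068 in 3d-dox, 5d-dox and 5d-dox against 1d-dox. Lower and higher calls became 3364 and 244 (12w-res against 12w+dox, in place of 772 and 955), 1638 and 497 (against 6w+dox, in place of 892 and 890) and 317 and 1058 (12w+dox against 6w+dox, in place of 619 and 483). At 3d-dox they became 3 and 15 in place of 7 and 11, and at 1d-dox 1 and 1 in place of 5 and 1. That scaling turned *Cad* to -0.58 in 12w-res against 12w+dox. It turned *Tk1* (0.26), *Umps* (0.032) and *Cad* (0.17) in 12w+dox against 6w+dox, *Umps* (-0.044) and *Cad* (-0.038) at 5d-dox, and *Rrm1* (-0.0012), *Umps* (-0.024), *Cad* (-0.026) and *Ctps* (-0.064) from 1d-dox to 5d-dox. *Ctps* in 12w+dox against 6w+dox turned with sex as a covariate (-0.032) and in females only (-0.089). The cause was not tested.

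Over all genes, DESeq2 called 113, 104, 139 and 7 genes in the short-term comparisons where limma called 6, 18, 27 and 2, and with no minimum fold change limma called 5782, 5172 and 3433 genes in the long-term ones in place of 1727, 1782 and 1102. Only the groups compared gave 3, 1 and 5 genes at 1d-dox, 3d-dox and 5d-dox.

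Leaving out each mouse in turn changed the sign of small, uncalled values. In 12w-res against 12w+dox *Cad* ranged from -0.11 to 0.20. In 12w+dox against 6w+dox the ranges were -0.28 to 0.035 (*Cad*), -0.068 to 0.19 (*Ctps*), -0.14 to 0.24 (*Rrm1*), -0.17 to 0.066 (*Tk1*), -0.12 to 0.080 (*Ctps*:*Ctps2*) and -0.21 to 0.21 (*Rrm2*:*Rrm2b*). At 1d-dox they were -0.076 to 0.089 (*Cad*), -0.094 to 0.091 (*Rrm1*) and -0.089 to 0.037 (*Umps*). At 3d-dox they were -0.0015 to 0.35 (*Rrm2*), -0.037 to 0.087 (*Tk1*), -0.014 to 0.18 (*Rrm2*:*Rrm1*), -0.14 to 0.21 (*Rrm2*:*Rrm2b*) and -0.13 to 0.10 (*Tk1*:*Tk2*). At 5d-dox they were -0.079 to 0.14 (*Cad*), -0.017 to 0.17 (*Rrm1*) and -0.044 to 0.091 (*Umps*). From 1d-dox to 5d-dox they were -0.067 to 0.12 (*Cad*), -0.050 to 0.072 (*Ctps*), -0.13 to 0.076 (*Dck*), -0.023 to 0.12 (*Umps*), -0.11 to 0.26 (*Dck*:*Dguok*) and -0.45 to 0.030 (*Tk1*:*Tk2*).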
